A study of Mus musculus with 6 samples.

Results

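The closest tandem poly(A) sites of the mouse retina were examined, pairs in which both ends of the messenger lie in 1 3′ UTR with less than 300 bases between them. Members were coding genes of GENCODE M21 (mm10) with exactly 2 poly(A) sites in their 3′ UTR. Each site had to hold at least 5% of the gene's tags over all stages, and the pair at least 20 tags per stage on average. The rule gave 719 pairs in 731 genes, out of 6194 site pairs of any kind fitted and 14409 genes with a site. 2 of the pairs were each shared by several gene names, 14 in all, among them the protocadherin alpha cluster, in which the genes share their last exons. Tag numbers, site shares and spacing chose the members, so these are given as a description, while the change of site choice with stage took no part in the choice. Trends in abundance come from a fit over all genes, and their counts among members are also a description.

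The tissue was retina of C57BL/6J mice taken before birth on embryonic days E13.5, E15.5 and E18.5 and after birth on postnatal days P0, P6 and P21. A stage was 1 sample, and no treatment was stated. PA-seq primes complementary DNA at the poly(A) tail and counts the 3′ ends of messengers as tags. The libraries held 3286158 to 4656153 tags, and the 719 pairs took 4.67% to 5.22% of them. Each stage had 2 count columns whose meaning was not given in the sources used here. They were added and not treated as replicates. All 9 retinal markers were measured, with a summed abundance of 1884 to 4853 CPM (tags of a gene scaled to library size). The 8 lens markers summed to 1692 CPM at E15.5 and 1864 CPM at P0, against 162 to 688 CPM at the other stages. The 7 blood markers were highest at E13.5, with 975 CPM, and lowest at P0, with 167 CPM. The 5 measured pigment epithelium markers and the 5 vascular markers were highest at P21, with 307 and 203 CPM, and lowest at 35.1 CPM (E18.5) and 28.9 CPM (P0). The part of these cells in the results was not tested. The counts of calls are also given with single stages left out.

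A messenger is cut and given its poly(A) tail at a site that the cleavage and polyadenylation machinery finds through a hexamer, most often AATAAA or its variant ATTAAA, a short way upstream. A gene with tandem sites makes a short 3′ UTR when the proximal site is used and a long one when the distal site is used. The sequence between the sites can hold binding sites for microRNAs and RNA-binding proteins, and brain and other neural tissue is known for long 3′ UTRs. In a close pair the choice adds or removes only a small piece of 3′ UTR.

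The last 30 bases before each edge are shown for the 4 pairs whose site choice changed with stage and for 4 abundant or steady pairs. Capitals mark the signal hexamer found, and where several rarer variants stood before an edge, the one nearest to it. Sequences are from GENCODE M21 transcripts (mm10) and run 5′ to 3′ on the strand of the gene. Mettl9 was read at chr7:121076805-121076834 and chr7:121076675-121076704 on the plus strand, Zfp777 at chr6:48024203-48024232 and chr6:48024340-48024369 on the minus strand, and Tubb2b at chr13:34127007-34127036 and chr13:34127221-34127250 on the minus strand. Eef1a1 was read at chr9:78478455-78478484 and chr9:78478573-78478602 on the minus strand. Eef2 was read at chr10:81182467-81182496 and chr10:81182325-81182354 and Aes at chr10:81566332-81566361 and chr10:81566134-81566163, both on the plus strand. Arl6ip1 was read at chr7:118118901-118118930 and chr7:118118972-118119001 on the minus strand, and Jtb at chr3:90235809-90235838 and chr3:90235668-90235697 on the plus strand. The distal stretch comes first in each case.
Mettl9 distal: taatcatgctAATAAAcgtttttggagatg
Mettl9 proximal: tggattgtttttAATAAAtgaagactggca
Zfp777 distal: tttgataataatagagtaattTTTAAAaga
Zfp777 proximal: atttccttgacAATAAAatggatgaaaaca
Tubb2b distal: atgagAAGAAAcaatggattttaagatgtc
Tubb2b proximal: gctaaaatcaCATAAAcctttgtgtcctaa
Eef1a1 distal: tttgagaccATTAAAacaagtttaatgaga
Eef1a1 proximal: cttcagaaggaaagaatgttgtggaccatt
Eef2 distal: ttggagtAATAAActacagtggttgatcca
Eef2 proximal: ccaaaagtctaAATAAAtgcattcagaggt
Aes distal: gtgccttcaaAATAAAaacatgaaaaggtt
Aes proximal: cttccccaAATAAAcgtgagggttaaaagt
Arl6ip1 distal: aaggggaaaaATTAAAaaccagttggaacc
Arl6ip1 proximal: gtgtgactAATACAtgttctacgagttaac
Jtb distal: aaaacggaaatAATAAAggagtaaagagtt
Jtb proximal: atgagcacAATAAAaagtaaaatagagctg
Eef2, Aes, Jtb and Mettl9 held AATAAA before both edges. Tubb2b and the distal site of Zfp777 had rarer variants, and none of the 13 hexamers searched stood before the proximal edge of Eef1a1.

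The edges lay 32 to 299 bases apart, with a median of 134 bases. In 237 pairs (33.0%) the spacing was under 100 bases, and in 7 it was under 40. The closest belonged to Nr1h3, a sterol-sensing nuclear receptor, at 32 bases, and to Slc35f2, a transporter, at 33. The widest, at 299 bases, were in Mus81, a structure-specific DNA endonuclease, and Rsrp1. Cdc34 and Tchp at 300 bases were just outside. At the limit on site share, Comtd1 was inside with 5% and Txndc17 outside with 4.99%, and at the limit on tags Ooep was inside with 20 tags per stage and Mipol1 outside with 19.8. A further 160 close pairs had a site under 5% and 4 had too few tags. The pairs split into 378 on the plus and 341 on the minus strand, and in 527 (73.3%) the gene had no site other than the pair.

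The distal site was the major one in most close pairs. Over all stages the median distal share, the percentage of the pair's tags that fell on the distal site, was 62.8% (quartiles 33.9% and 83.9%), and it was above 50% in 454 pairs (63.1%). The distal site held at least 80% in 220 pairs, at most 20% in 108 pairs, and an intermediate share in 391. The same site was the major one at each of the 6 stages in 591 pairs (82.2%), while 128 changed their major site at some stage. The widest of the close pairs, at 250 to 299 bases, had a median share of 48.2% (89 pairs), and those under 50 bases had 53.6% (33 pairs), against 57.1% to 66.3% in between.

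**Figure D1:**
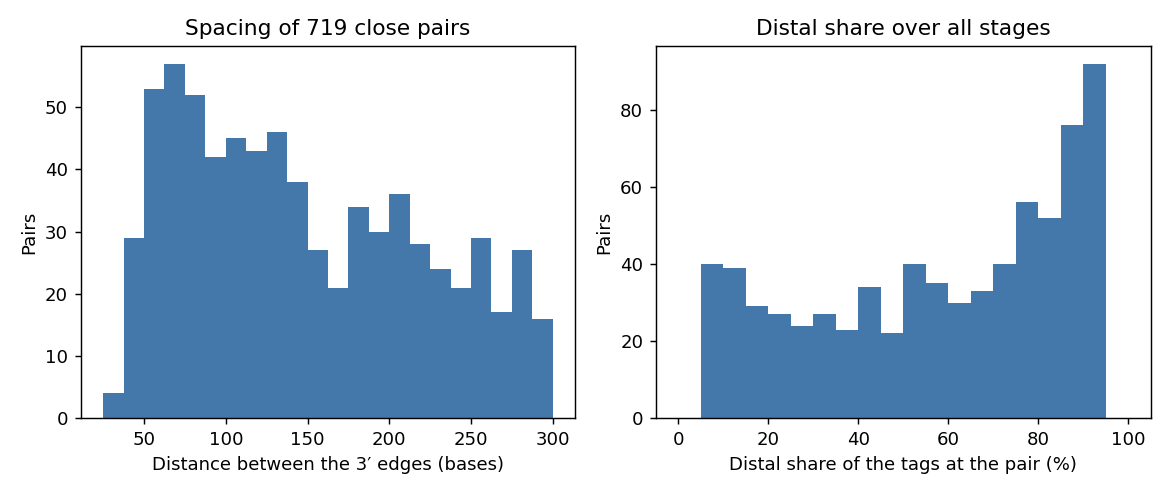
Spacing and site share of the 719 close pairs. Left, the number of pairs by distance between the 3′ edges in bases. Right, the number of pairs by distal share over all 6 stages in percent. Shares below 5% and above 95% cannot occur because of the rule, and the largest group of pairs lies at high distal shares.

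The site shares differed between classes of signal hexamer at the edges. In the 40 bases before the edge, AATAAA stood at 58.3% of distal and 49.5% of proximal sites, and ATTAAA at 19.5% of distal and 17.8% of proximal sites. Either of them was present at 77.7% of distal and 67.3% of proximal sites, against 1.53% in a window of the same length 100 to 139 bases before the proximal edge. The search read the transcript strand. A site with both hexamers was counted under AATAAA, and 11 rarer variants were looked for only where both were missing. A rarer variant stood at 15.6% of distal and 23.0% of proximal sites, and no hexamer of the list at 6.68% and 9.74%. The first base of the hexamer was a median of 22 bases before the edge at both kinds of site. In pairs over 1500 bases apart, AATAAA or ATTAAA stood at 92.3% of distal and 71.4% of proximal sites.

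Where both sites had AATAAA (228 pairs), the median distal share was 64.2%. Where only the proximal site had AATAAA and the distal site had neither main hexamer (66 pairs), it was 29.1%, and where the distal site had AATAAA and the proximal site neither (114 pairs), 77.1%. With ATTAAA at the proximal and AATAAA at the distal site (77 pairs) the median was 71.3%, and with the hexamers the other way round (62 pairs) it was 44.5%. The highest median, 81.5%, was that of the 55 pairs with neither at the proximal and ATTAAA at the distal site. With neither hexamer at either site (66 pairs) it was 66.0%. Single pairs spread widely within each class: with AATAAA at both sites the quartiles were 33.6% and 83.0%. The classes describe the members, which were chosen partly on site share, and no test was made. Across the 9 classes the median difference of the distal share, P21 minus E13.5, lay between −2.85 and 1.17 percentage points.

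**Figure D2:**
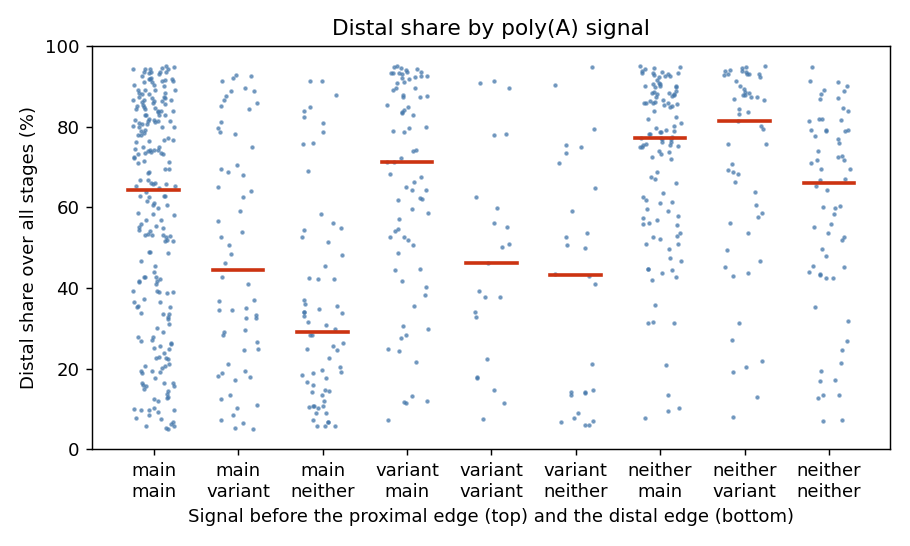
Distal share over all stages in percent for the 719 close pairs, by the signal before each edge (main, AATAAA; variant, ATTAAA; neither). Each point is a pair and each line the median of its class, which is lowest, at 29.1%, with the main signal at the proximal edge and neither at the distal one.

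Further features were read around the edges. Between the edges, 62.7% of bases were A or T, against 59.5% in a stretch of the same length before the proximal edge (717 pairs). The AU-rich element core ATTTA, searched on the transcript strand, occurred between the edges in 214 of 717 pairs (29.8%), against 166 (23.2%) in the upstream stretches. The Pumilio motif TGTANATA occurred in 36 pairs (5.02%), against 49 (6.83%). Where the stretch between the edges held ATTTA the median difference of the distal share was 0.147 points, and where it did not, 0.0677 points. The distal edge lay within 25 bases of an annotated transcript end in 595 pairs (82.8%), the proximal edge in 205 (28.5%). An A-rich stretch, at which an oligo(dT) primer could start inside a transcript, followed 29 of the 718 proximal edges that could be read (4.04%). The median distance from the stop codon to the proximal edge was 507 bases.

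Site choice in close pairs changed little over development. From E13.5 to P21 in stage order, the median distal share was 64.2%, 61.3%, 64.3%, 64.1%, 64.3% and 65.0%. The lowest value was that of E15.5, and the other stages lay within 0.859 points of each other. The 949 tandem pairs 300 to 1500 bases apart had medians of 62.7%, 61.9%, 63.6%, 65.0%, 66.1% and 67.9% in the same order. The 573 pairs over 1500 bases apart had 65.9%, 65.5%, 67.6%, 68.8%, 70.0% and 70.9%. In both longer classes the median was higher at each stage from E18.5 on than at the one before.

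**Figure D3:**
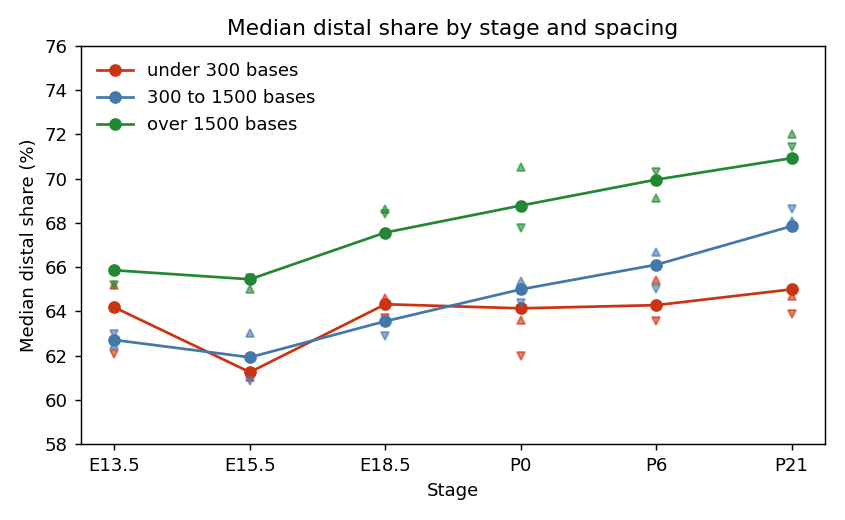
Median distal share in percent by stage for tandem pairs in 3 classes of spacing (719, 949 and 573 pairs). Circles with lines are the columns added, upward and downward triangles the first and second count column alone. The close pairs stand at 64.2% at E13.5 and 65.0% at P21, and the axis starts at 58%.

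Each pair was tested for a trend of the distal to proximal ratio with stage order, in edgeR's quasi-likelihood test with Benjamini-Hochberg adjustment over all 6194 pairs. The distal share rose in 2 close pairs and fell in 2 (0.278% each), and 715 did not pass. Of all pairs fitted, 4.04% rose and 1.50% fell, so the close pairs lie below the background in both directions. At an unadjusted p below 0.05, 35 close pairs (4.87%) were higher and 19 (2.64%) lower with stage, against 15.2% and 5.49% of all pairs. Of the pairs 300 to 1500 bases apart 18 rose and 4 fell, and of those over 1500 bases 35 rose and 12 fell. The difference between the classes of spacing was not tested. Leaving out a library high in lens markers changed these counts: 1 close pair rose and 0 fell without E15.5 (23 and 13 at an unadjusted p below 0.05), and 4 rose and 3 fell without P0.

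The precision of the close pairs was like that of the others. The median standard error of the fitted change, a log2 change of the odds of the distal site from E13.5 to P21, was 0.53, against 0.52 and 0.57 in the longer classes and 0.52 over all pairs. Median tags per stage were 183, against 190 and 172 in the longer classes. The median fitted change was 0.06 (quartiles −0.36 and 0.49), against 0.33 and 0.47 in the longer classes and 0.24 over all pairs. It was above 0 in 391 close pairs (54.4%), against 62.6% of all pairs. For 501 close pairs (69.7%) the 95% interval lay within a log2 change of 2 either way, and for 76 (10.6%) within 1. Small shifts in the rest were not detectable at this precision. Among pairs with at least 100 tags at every stage, 2 of 363 close pairs were called, against 18 of 516 and 36 of 285 in the longer classes.

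Across tandem pairs of every spacing, the called share was 0% under 100 bases (0 of 237 in edgeR's test), 1.06% at 100 to 199, 0.505% at 200 to 299 and 1.06% at 300 to 599 bases. It was 2.54% at 600 to 999, 3.92% at 1000 to 1499, 7.37% at 1500 to 2999 and 9.20% from 3000 bases on. The median fitted change was between 0.05 and 0.09 in the 3 closest classes and 0.17 at 300 to 599 bases. It was highest, 0.54, at 1500 to 2999 bases. The classes differ in more than spacing: AATAAA or ATTAAA stood at 77.7% of distal sites under 300 bases, 82.4% at 300 to 1500 bases and 92.3% over 1500 bases, and the part of this in the calls was not tested.

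**Figure D4:**
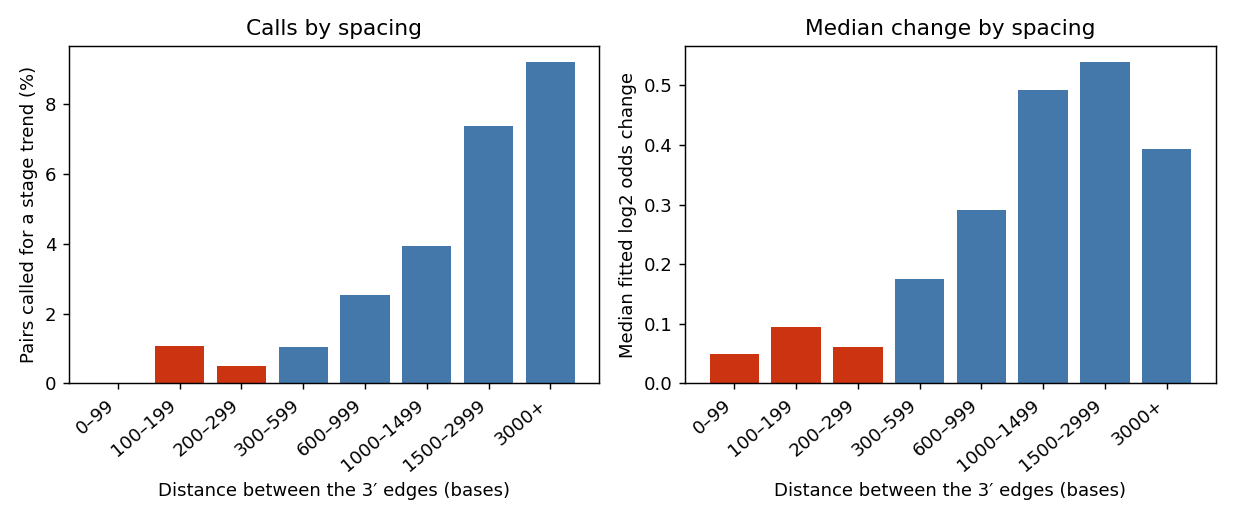
Tandem pairs by distance between the 3′ edges in bases. Left, the percentage of pairs called for a trend with stage. Right, the median fitted log2 change of the distal odds from E13.5 to P21. Red bars are the close pairs, blue bars longer ones. The called share is at most 1.06% up to 599 bases and 9.20% from 3000 bases on.

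Mettl9, an enzyme that methylates histidine residues of proteins, had its sites 130 bases apart. In stage order from E13.5, the distal site held 77.1%, 73.5%, 80.9%, 84.0%, 86.9% and 89.7% of the tags. The share was higher at each stage than at the one before from E18.5 on, and the Wilson 95% interval at P21 (86.3% to 92.4%, 389 tags) did not overlap that at E13.5 (73.9% to 80.1%, 700 tags). Such intervals cover counting error only. The fitted change was 1.53 ± 0.34 (SE), with an adjusted p of 0.024. Its abundance fell, to 107 CPM at P21 against 188 CPM at E13.5 (fitted log2 change −0.68 ± 0.20 (SE), adjusted p = 0.041 in edgeR's test). In whole tissue, fewer cells of a type and less RNA per cell cannot be told apart.

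Zfp777, a zinc finger protein, had its sites 137 bases apart, with AATAAA at the proximal one and TTTAAA marked at the distal one. TTTAAA stood only 9 bases before the distal edge, and AATAGA, another variant searched, stood upstream of it. Which of them acts was not tested. Its distal share, stage by stage, was 52.9%, 50.8%, 43.7%, 40.7%, 33.6% and 33.6%. It was lower at each later stage up to P6, with 330 to 511 tags per stage, and the proximal site became the major one from E18.5 on. The fitted change was −1.29 ± 0.32 (SE), adjusted p = 0.037. The abundance of the gene did not pass the test, with a fitted log2 change of 0.03 ± 0.37.

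Tubb2b, a beta-tubulin of developing neurons, had its sites 214 bases apart and used mainly the proximal one at every stage. The embryonic shares of the distal site were 18.8%, 21.8% and 13.9%, and the postnatal ones 5.25%, 7.80% and 4.41%. Each embryonic value was above each postnatal one. The fitted change was −2.53 ± 0.58 (SE), adjusted p = 0.026. The value at P21 rests on 3 distal tags among 68, with an interval of 1.51% to 12.2%. The gene had 18.7 CPM at P21, against 116 CPM at E13.5, and its trend in abundance did not pass the test (adjusted p = 0.17).

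Eef1a1, the elongation factor that brings aminoacyl-tRNA to the ribosome, gave the fourth call, which is uncertain. Up to P0 the distal shares were 46.8%, 44.1%, 37.9% and 45.1%, and at the last stages, P6 and P21, 94.0% and 95.8%. The fitted change was 5.24 ± 1.11 (SE), adjusted p = 0.020. The columns differed widely before P6: at E13.5 the first column held 50 distal tags and the second 2, with 36 and 23 proximal tags. At P21 they held 196 and 171 distal and 11 and 5 proximal tags. The 75 bases before the proximal edge matched transcripts of 5 other annotated genes at 90% identity or more. The tags counted at Eef1a1 rose, with 33.3, 31.6, 28.5, 25.7, 128 and 107 CPM from E13.5 to P21 (log2 change 2.12 ± 0.65 (SE), adjusted p = 0.044 in edgeR's test). The step at P6 is the one seen in its site share. How tags of near-identical copies were placed is not given in the sources used here.

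All 4 calls were lost when E13.5, P6 or P21 was left out, and in edgeR's diffSpliceDGE. Those of Mettl9, Zfp777 and Tubb2b were also lost without E15.5, from the second column alone and on days after conception, and that of Zfp777 without E18.5. With a stage left out, the fitted change ran from 1.34 to 1.97 for Mettl9, from −1.45 to −1.19 for Zfp777, from −3.24 to −2.16 for Tubb2b and from 4.34 to 7.24 for Eef1a1. The adjusted p ran over the alternatives from 0.0131 to 0.181 for Mettl9, from 0.0237 to 0.344 for Zfp777, from 0.0101 to 0.418 for Tubb2b and from 0.000779 to 0.216 for Eef1a1.

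**Figure D5:**
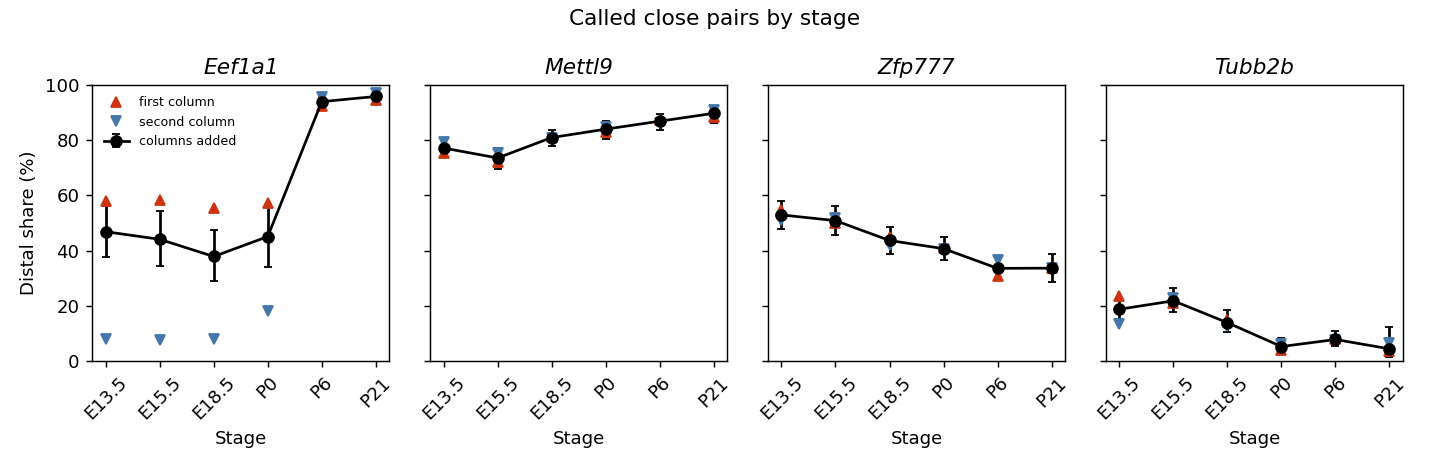
Distal share in percent by stage for the 4 called close pairs. Circles with bars are the columns added with Wilson 95% intervals, and triangles the first and the second count column. The columns lie closer together in Mettl9 and Zfp777 and far apart in Eef1a1 before P6. In Tubb2b they differ most at E13.5, with 23.7% in the first and 13.5% in the second.

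Between the end stages, 545 of the 653 close pairs with at least 20 tags at both (83.5%) differed by under 10 points. The distal share was higher at P21 by at least 20 points in 11 pairs (1.68%) and lower in 8 (1.23%). Over all pairs these shares were 7.06% and 2.74%. The median of the absolute difference over the 653 pairs was 4.33 points. Over all close pairs, the first and second column differed by a median of 3.67 points at P21 and 3.33 points at E13.5. Each column holds fewer tags than their sum, and this wider set includes pairs with under 20 tags. Of the 19 pairs past 20 points, 18 differed in the same direction in both columns and 4 by at least 20 points in both.

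Of these 19, some rested on few tags, and several were singled out here after their values were seen. Gnat2, the transducin alpha subunit of cones, had a distal share of 32.3% at P21 (1015 tags), against 60% at E13.5 (35 tags, Wilson 95% interval 43.6% to 74.4%). At E15.5, E18.5, P0 and P6 it had 37.6%, 34.6%, 33.8% and 33.6%, so E13.5 alone stood apart. At E13.5 the first column held 18 distal and 13 proximal tags, and the second only 3 and 1. Its abundance rose, to 278 CPM at P21 against 9.40 CPM at E13.5 (fitted log2 change 3.51 ± 0.66 (SE), adjusted p = 0.00954 in edgeR's test), and its trend in site choice did not pass (adjusted p = 0.28). Cnn3, a calponin that binds actin, had 29.4% at P21 against 49.9% at E13.5, with 40.2%, 39.2%, 49.0% and 40.2% at the stages between. Bdnf, a neurotrophin with its sites 237 bases apart, had 12% at P21 against 38.5% at E13.5, on 75 and 65 tags. Its difference was −7.74 points in the first column and −40.2 points in the second. Rgs4, which speeds GTP hydrolysis by G alpha subunits, had 28.6%, 35.5%, 42.4%, 47.7%, 45.3% and 49.4% from E13.5 to P21, with an adjusted p of 0.10.

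In 5 pairs, picked by their p, the adjusted p lay between 0.05 and 0.1. Pias3, Atxn10, Gtf2e2 and Ttyh3 had positive and Rtbdn negative fitted changes. Gtf2e2, a subunit of the general transcription factor TFIIE, had 58.9%, 58.1%, 64.9%, 64.4%, 66.7% and 78.3% from E13.5 to P21 (change 1.14 ± 0.36 (SE), adjusted p = 0.088). Rtbdn, a retinal riboflavin-binding protein, had 100%, 98.2%, 95.8%, 99.3%, 94.1% and 93.8% in stage order. Its P6 and P21 values were the lowest of the 6. The fitted change of Rtbdn was −2.65 ± 0.87 (SE), with the share at E13.5 at the upper limit of 100%.

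The pairs with the most tags were the most closely measured. Eef2, which moves the ribosome along the messenger, had 78.1%, 80.7%, 79.7%, 79.0%, 77.3% and 79.4% from E13.5 to P21, a range of 3.47 points over 2114 to 3012 tags per stage. Its fitted change was −0.06 ± 0.22 (SE), with a 95% interval from −0.55 to 0.43. Aes, a short corepressor of the Groucho family, had 41.6%, 44.8%, 45.7%, 43.0%, 40.6% and 40.3% (change −0.18 ± 0.23). Arl6ip1, a membrane protein that shapes the endoplasmic reticulum, had 87.3%, 87.1%, 84.4%, 89.2%, 85.4% and 86.4% (change −0.09 ± 0.28). Slc25a4, the ADP/ATP carrier of mitochondria, had 51.9%, 53.9%, 53.3%, 64.3%, 56.4% and 60.04%, highest at P0 (change 0.50 ± 0.26, adjusted p = 0.32). None of these trends passed the test.

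The steadiest among the 363 pairs with at least 100 tags at every stage lay near 1 end of the scale. Jtb, a transmembrane protein, stayed between 93.2% and 94.5%, a range of 1.37 points. Rtn1, a reticulon of the neuronal endoplasmic reticulum, stayed between 93.2% and 95.1%, and Glrx5, a mitochondrial glutaredoxin for iron-sulfur clusters, between 93.9% and 96.0%. Klhl12, an adaptor of the Cul3 ubiquitin ligase, used the proximal site, with distal shares from 5.08% to 7.03%. The median range over the stages in these 363 pairs was 8.26 points (quartiles 5.56 and 11.6), against 9.39 and 11.9 points in the longer classes.

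The lists of genes by function held 0 or 1 call each, and lists of this size would hold few at the share of all pairs, 4.04% rising and 1.50% falling. Of 10 translation and ribosome genes Eef1a1 rose, the call given above as uncertain. Of 28 zinc finger and homeobox genes Zfp777 fell. Of 8 cytoskeleton and motor genes Tubb2b fell. There were 0 calls among 24 solute carriers and channels, 21 mitochondrial proteins, 19 membrane traffic genes and 14 kinases and phosphatases. None was found among 14 genes of small GTPases, G alpha subunits and their regulators. The same was so for 13 ubiquitin and proteasome genes, 13 cell cycle genes, 12 RNA processing genes, 11 chromatin regulators, 3 chaperones and 2 photoreceptor and synapse genes. A gene can be in more than 1 list, and the small lists set no limit on what other genes do. The lists are not complete. The photoreceptor and synapse list held Gnat2 and Snap25, but not Impg1 or Rtbdn.

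The median fitted change of the 14 lists ran from −0.60 for the 2 photoreceptor and synapse genes to 0.40 for the 3 chaperones, against 0.24 over all pairs.

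The median distal share of a list is given as a description, with no test between lists. The 21 mitochondrial proteins had a median distal share of 21.09%, but Slc25a4, the one with the most tags, had 56.2% over all stages. Atp5b, the beta subunit of ATP synthase, had 12.03% at P21 and 9.44% at E13.5, and the phosphate carrier Slc25a3, which is also in the carrier list, had 7.87% at P21 and 10.5% at E13.5. The 12 RNA processing genes had a median of 78.2%, among them Hnrnph1, a splicing regulator, with 91.2% to 94.8% over the stages. The 13 ubiquitin genes had a median of 74.2%. The 2 with the most tags were Usp22, a histone deubiquitinase, at 84.6% over all stages, and Cul1, a ligase scaffold, at 12.7%. Usp22 had 82.3%, 82.2%, 83.5%, 86.1%, 86.0% and 89.9% from E13.5 to P21, with an adjusted p of 0.11. Hspa5, the main chaperone of the endoplasmic reticulum, kept the distal site at 3.41% to 8.27%. Snap25, a SNARE of synaptic vesicle fusion, had 52.7%, 52.0%, 57.1%, 40.6%, 49.3% and 49.8%, lowest at P0, while its abundance rose, to 418 CPM at P21 against 55.6 CPM at E13.5 (change 2.81 ± 0.22 (SE), adjusted p = 0.00231).

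More of these genes were called for abundance than for site choice. Abundance rose in 104 of 719 member genes (14.5%) and fell in 120 (16.7%), with 495 not passing. Of all 14404 genes tested, 17.0% rose and 13.1% fell. The median fitted log2 change was −0.21, against −0.03 over all genes. Without P21, 39 rose and 29 fell. Of the 13 cell cycle genes 7 fell and 3 rose. Dtl, a receptor of the ubiquitin ligase that acts in DNA replication, fell to 10.4 CPM at P21, against 127 CPM at E13.5 (change −3.84 ± 0.95 (SE), adjusted p = 0.022). Its 38 tags at P21 were all in the first column and 0 in the second, so its share there is not compared. Fgf3, a growth factor, and Haspin, a mitotic histone kinase, also fell, with changes of −4.05 ± 0.78 and −4.24 ± 1.16 (SE). The calls of all 3 were lost without P21, those of Dtl and Haspin also without E15.5, and that of Haspin also without E13.5 or P6.

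Impg1, a proteoglycan of the matrix around photoreceptors, rose to 160 CPM at P21, against 2.42 CPM at E13.5 (change 5.64 ± 1.12 (SE), adjusted p = 0.011), a call lost without P21. At E13.5, E15.5 and P0 its second column held 0 tags at the pair. Omg, a myelin-associated glycoprotein of neurons and oligodendrocytes, had 45.8 CPM at P21, against 1 tag at E13.5, and also rose (5.66 ± 0.89 (SE), adjusted p = 0.00570). Its distal share was 47.8% at P0, 60.6% at P6 and 65.3% at P21, while at E15.5 the second column held 0 tags and at E18.5 the distal site held 19 of 35 tags in the first column and 4 of 19 in the second, and its trend in site choice did not pass (adjusted p = 0.24). The largest fitted rise was that of A730046J19Rik, with 36.5 CPM at P21 and 1 tag at E13.5. A share at 1 tag cannot be read. A730046J19Rik had 142 and 133 tags at the pair at P6 and P21, and at most 8 at each earlier stage. Impg1 had 75 and 319, and at most 24 earlier. Both met the minimum of tags through the stages where they were high.

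In the list of 20 factors that cut messengers and add the tail, all measured, 18 did not pass the abundance test. Of the 20, 1 rose and 1 fell, while of all 14404 genes 17.0% rose and 13.1% fell. Pcf11, a termination factor, rose to 102 CPM at P21, against 54.5 CPM at E13.5 (change 0.81 ± 0.24 (SE), adjusted p = 0.040). Cpsf3, the nuclease that cuts the messenger, fell to 98.5 CPM at P21, against 148 CPM at E13.5 (change −0.62 ± 0.15 (SE), adjusted p = 0.022). Nudt21, the RNA-binding subunit of cleavage factor I, had 10.2 CPM at P21 and 37.1 CPM at E13.5 and just missed the threshold (change −1.46 ± 0.47 (SE), adjusted p = 0.0502). The median change of the list was −0.22, against −0.03 over all genes.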

How the data were processed

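The authors deposited a table of tag counts per poly(A) site cluster, in 2 columns per stage, and 1 enrichment score per site; the score was not used as a measurement. The aligner was BWA 0.7.5a-r405 and the build mm10, per the submitters' processing notes. Clustering, site filters, duplicate removal and the meaning of the columns are not given in the sources used here. The 32688 sites were placed on GENCODE M21 3′ UTRs by their 3′ edge, and a gene took sites up to 1000 bases downstream. Members, gene lists and tests were chosen with earlier results of these data known.

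The 2 columns of a stage were added. Distal and proximal counts were fitted in edgeR 4.0.16 (R 4.3.3) with a term per library, a site term and a slope of site on stage order (E13.5 as 1, P21 as 6), which leaves 4 residual degrees of freedom. What a straight line does not follow enters the spread. With 1 sample per stage, p values do not measure spread between animals. Changes are per 5 steps, SE is the absolute change over the square root of F, and the threshold for a call was an adjusted p of 0.05. Abundance was fitted on tags per gene (TMM, genes reaching a CPM of 1 in 2 or more libraries). Both fits were tested on simulated data. Signals were searched in transcript sequence, similar transcripts with blastn 2.17.0 (60 bases or more at 90% identity). Alternatives were each stage left out, single columns, days after conception, diffSpliceDGE, DESeq2 1.42.0, other minimums, a 40-base lower limit and a 60-base signal window.

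Named genes were called members with at least 20 tags at each stage (up to 8 per direction), the 4 with most tags, the 4 steadiest, those at the limits of spacing, up to 2 per list and up to 3 per direction with the largest called change in abundance. Pairs just short of the p threshold and pairs past 20 points were named after their values were seen. No value was imputed.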

Additional observations from a re-analysis of the deposited data

How the results depend on the processing

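The number of close pairs called for site choice, 2 rising and 2 falling, ran from 0 to 4 rising and from 0 to 3 falling with a stage left out. It was 0 rising without E13.5, P6 or P21, and 0 falling without those stages or E15.5 (unadjusted p below 0.05 in edgeR's test: 24 to 33 rising and 13 to 18 falling). In diffSpliceDGE 0 rose and 0 fell (19 and 5 unadjusted). From the second column alone 0 fell (16 unadjusted), and on days after conception 0 fell (24 unadjusted). DESeq2 called 3 rising and 2 falling. Without pairs similar to other genes, chosen after seeing the data, 1 rose. With genes that have weaker UTR sites added, a reading also chosen after seeing the data, 3 rose and 2 fell. The second column alone gave 4 pairs higher by 20 points at P21, and a limit of 10 points gave 50 higher and 58 lower. The median difference between P21 and E13.5, 0.289 points, was 0.149 from first columns and 0.219 from second columns. Member genes called for abundance ran from 39 to 116 rising and from 29 to 142 falling with a stage left out. The 39 and the 29 were without P21, and 62 rose and 53 fell without E13.5. Without E15.5 59 fell, and without P6 70 fell. Of the 41 pairs that the naming rule gave and that were not called, 0 were called under the alternatives run for them, and none of the 4 calls changed direction. Pairs named after their values were seen were not followed through the alternatives. Apart from the construction of the alternatives, the cause was not tested. No paired analysis was possible because each stage had 1 sample. With 1 sample per stage and a median standard error of 0.53 in the log2 change, small shifts cannot be seen in most pairs.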
